A study of Mus musculus with 6 samples.

Results

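The 10 genes described here move bile acids and other organic anions across the hepatocyte membrane, and they were followed in liver RNA. They are Abcb11, Abcb4 and Abcc2 of the canalicular membrane, Abcc3, Abcc4 and Slc51b of basolateral export, and Slc10a1, Slco1a1, Slco1a4 and Slco1b2 of basolateral uptake. The genes were chosen by name and role, and all 10 were found among the 54320 genes of the deposited tables. Each of the 10 had a mean of at least 0.5 FPKM (fragments scaled to gene length and library size) and so was among the 13787 genes tested.

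Libraries came from the livers of 6 C57BL/6 mice, 3 in each group. Mice of the group called flox here had the genotype HuR flox/flox, in which loxP sites flank the gene of HuR, an RNA-binding protein, and the labels name no Cre for them. Mice of the group called HKO had the genotype HuRflox/flox Alb-Cre+/-, so both groups shared the floxed alleles. Alb-Cre places the recombinase under the albumin promoter, which is active in hepatocytes. Which cells of these livers lost their HuR alleles was not measured here. Both groups ate a diet labelled MCD for 3 weeks and were killed at 11 weeks of age, and no group on another diet was analysed here. The design asks which liver transcripts differ between these genotypes on this diet.

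Bile acids are made in hepatocytes, pumped into the canaliculus, reabsorbed in the intestine and taken up again from portal blood. Uptake at the basolateral membrane runs through the sodium-dependent carrier NTCP and the sodium-independent organic anion transporting polypeptides (OATPs), and secretion at the canalicular membrane runs through ATP-driven pumps. Exporters of the basolateral membrane return bile acids and conjugates to blood. In cholestasis, uptake carriers are known to be lowered and basolateral exporters raised, and the bile acid receptor FXR, the product of Nr1h4, is a known activator of the bile salt pump gene.

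The upstream sequences of 4 of the genes are shown because they span the roles and because the search below found an FXR-type element in a pump gene and in an uptake gene. Each is the 250 bases before the RefSeq start site on GRCm38.p6, read 5′ to 3′ on the gene's strand, and in these 4 genes that site equals the gene's 5′ end in the deposited tables. Abcb11 is at chr2:69342617-69342866 on the minus strand, Abcc4 at chr14:118706220-118706469 on the minus strand, Slc10a1 at chr12:80968706-80968955 on the minus strand and Slco1b2 at chr6:141629268-141629517 on the plus strand. Capitals mark motif matches.
Abcb11: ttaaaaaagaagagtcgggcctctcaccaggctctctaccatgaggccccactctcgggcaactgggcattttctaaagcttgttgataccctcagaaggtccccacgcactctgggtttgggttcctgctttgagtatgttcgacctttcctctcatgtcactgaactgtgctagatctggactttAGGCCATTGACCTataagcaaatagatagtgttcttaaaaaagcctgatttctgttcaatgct
Abcc4: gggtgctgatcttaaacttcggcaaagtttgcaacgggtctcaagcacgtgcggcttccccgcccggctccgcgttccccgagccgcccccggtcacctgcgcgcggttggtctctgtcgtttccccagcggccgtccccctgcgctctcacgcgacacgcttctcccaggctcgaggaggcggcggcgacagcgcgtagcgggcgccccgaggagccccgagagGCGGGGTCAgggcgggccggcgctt
Slc10a1: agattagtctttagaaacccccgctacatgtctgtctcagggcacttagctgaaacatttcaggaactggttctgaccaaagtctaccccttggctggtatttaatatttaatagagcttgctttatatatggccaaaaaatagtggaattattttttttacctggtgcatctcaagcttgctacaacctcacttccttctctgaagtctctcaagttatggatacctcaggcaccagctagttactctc
Slco1b2: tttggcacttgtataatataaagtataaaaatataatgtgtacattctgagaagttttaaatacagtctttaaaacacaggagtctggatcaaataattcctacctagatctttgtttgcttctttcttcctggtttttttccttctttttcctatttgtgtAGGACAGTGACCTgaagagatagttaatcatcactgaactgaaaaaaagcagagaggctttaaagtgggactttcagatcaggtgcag

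Of the 10 genes, 9 had an entry in the RefSeq promoter table, with 11 windows in all, and Abcc3 had none. Windows were searched on both strands for the half-site AGGTCA, for that half-site followed after 1 base by its reverse complement TGACCT with at most 1 mismatch (an inverted repeat of the kind FXR is known to bind), and for TGAC and GC separated by 3 bases, the core of the antioxidant response element. The inverted repeat was found in Abcb11, as AGGCCATTGACCT from 63 to 51 bases before the start site, and in Slco1b2, as AGGACAGTGACCT from 88 to 76 bases before it. It occurs in 26 of all 32851 windows of this length (0.0791%). The half-site lies inside both of these matches and was found in 6 of the 9 genes, Abcb11, Slco1b2, Slco1a1, Slc51b, Slc10a1 (in a second window) and Abcc2, against 14% of all windows. The antioxidant response core was found in Abcc4 and Abcc2, against 10.2% of all windows. A gene counted if any of its windows matched, so the counts of genes and the shares of windows are in unlike units. A match describes the letters of the window and does not show binding.

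The libraries held 16769082 to 20633215 reads assigned to genes. Elavl1, the HuR gene, stood at 3.51, 2.36 and 2.99 FPKM across flox 1 to 3, then 5.77, 4.28 and 4.91 FPKM across HKO 1 to 3, which is no reduction in the libraries labelled HKO. Its log2 fold change was 0.67 ± 0.23 (SE; limma, adjusted p = 0.208 by Benjamini-Hochberg), and 0.32 after correction of each library for gene length (limma, adjusted p = 0.455). A level over the whole gene cannot show the loss of a part of it, so directions are given for the labels and not for a measured loss of HuR. The 12 hepatocyte markers, all tested (0 higher and 3 lower at an unadjusted p under 0.05), summed to 66957 to 92200 FPKM per library, led by Alb, which matches the labelled tissue. The flox libraries stood apart from one another. Reads were found in 16608 genes of flox 2 and in 19920 to 22067 genes of each other library, and 2.26% of the reads of flox 2 were mitochondrial, where the others had 4.34% to 4.69%. Flox 2 was the highest of the 6 libraries for 34.1% of the tested genes and the lowest for 37.7%, and flox 3 the highest for 26.3% and the lowest for 21.6%. For 12309 of the tested genes (89.3%) the spread on the log2 scale was wider among flox than among libraries labelled HKO.

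With all 6 libraries, no transporter gene passed the threshold, an adjusted p under 0.05, beside 2 of 13787 genes tested (0.0145%). At an unadjusted p under 0.05 there were 3 of the 10, Abcb11 on the higher side for HKO and Abcc3 and Abcc4 on the lower, where 20.9% of all tested genes reached that level (10.1% on the higher side for HKO and 10.8% on the lower). The same 3 were the genes whose groups did not overlap, where 31.9% of all tested genes did not overlap. The share among the transporters is near that of the genome. Without flox 3, 6 of the 10 passed, 4 on the higher side for HKO and 2 on the lower, where 21.0% of all tested genes passed as higher and 19.4% as lower. On leaving out any other single library, 0 of the 10 passed, and 0 to 2 of all genes tested did. The labels do not say whether the mice came from separate litters or cages, so p-values measure the spread between these 6 samples.

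**Figure D1:**
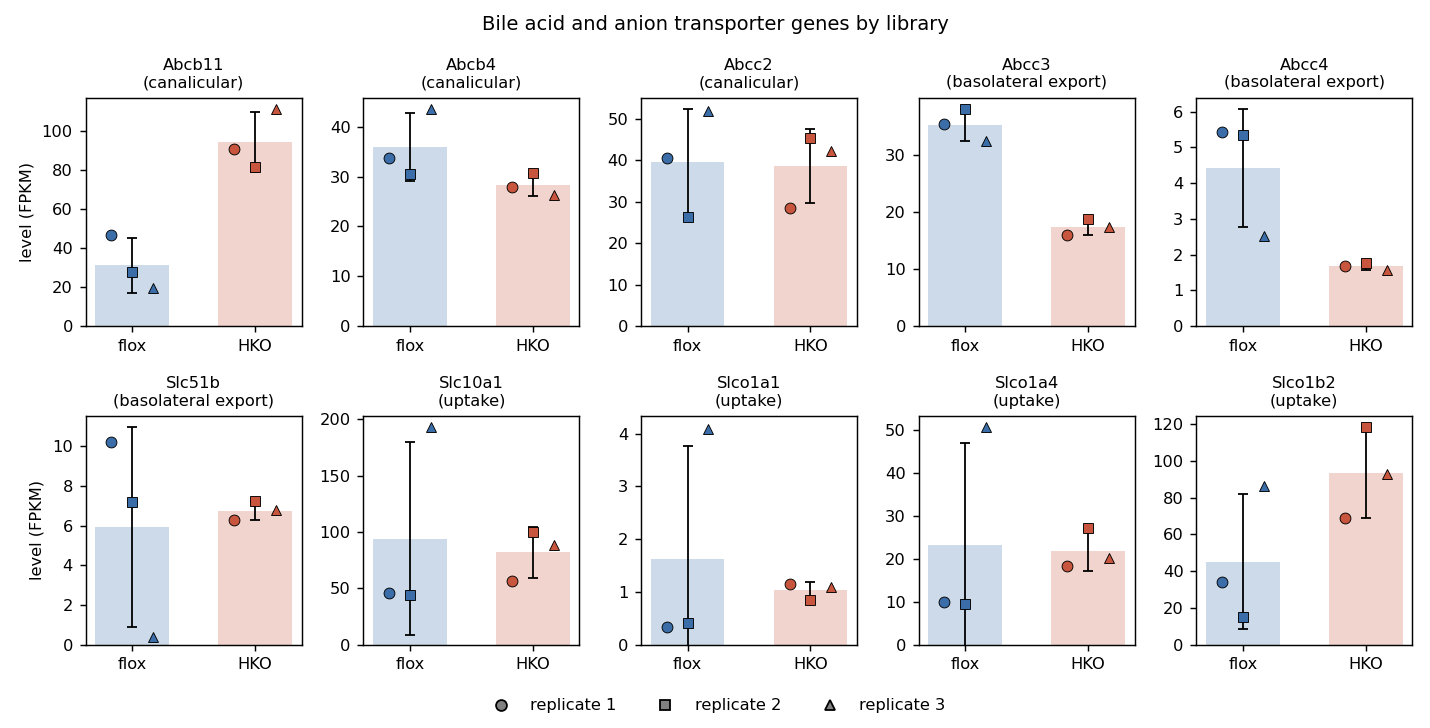
Level of each transporter gene (y axis, FPKM, from 0) in the flox and HKO libraries (x axis), with a point for each library, the group mean as a bar and the SD (n = 3) as an error line, cut at 0 where it would go below. Abcb11 is higher, and Abcc3 and Abcc4 are lower, in every library labelled HKO than in every flox library, and flox 3 sits apart from flox 1 and 2 for the uptake genes and Slc51b.

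Among the canalicular pumps, the bile salt pump gene stood higher in the libraries labelled HKO, while the intervals of the phospholipid and conjugate transporters held 0. Abcb11 (ENSMUSG00000027048, chr2:69238282-69342616, minus strand) encodes BSEP, the pump that secretes bile salts into the canaliculus. FPKM values were 46.8, 27.5 and 19.4 for flox 1 to 3 and 90.8, 81.3 and 111 for HKO 1 to 3. The lowest library labelled HKO was above the highest flox library, and the means were 31.2 ± 14.1 and 94.5 ± 15.4 FPKM (SD, n = 3). The log2 fold change on the log2(FPKM + 0.5) scale was 1.66 with an SE of 0.35 and a 95% confidence interval of 0.84 to 2.49 (limma, adjusted p = 0.157). Separated groups of 3 give an exact two-sided permutation p of 0.1, which is the smallest that 3 against 3 allows. Without flox 3 the value was 1.37 (limma, adjusted p = 0.0177; adjusted p from 0.0177 to 0.526 over the alternatives), and under all 18 alternatives run it lay between 1.37 and 2.06. Its upstream window, like that of Slco1b2, held the inverted repeat with 1 mismatch, and a part of this element in the values was not tested. Each value rests on 1528 to 12520 reads.

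Abcb4 (ENSMUSG00000042476, chr5:8893717-8959231, plus strand) encodes the flippase that brings phosphatidylcholine into bile. Levels in flox 1 to 3 were 33.7, 30.5 and 43.6 FPKM, those in HKO 1 to 3 27.9, 30.6 and 26.3 FPKM. The groups overlapped only between flox 2 and HKO 2. On the log2 scale the difference was -0.33 (95% confidence interval -0.84 to 0.19, limma, adjusted p = 0.389), and it was -0.65 after correction of each library for gene length (adjusted p = 0.173) and -0.03 after quantile normalization (adjusted p = 0.949). Abcc2 (ENSMUSG00000025194, chr19:43782192-43840740, plus strand) encodes MRP2, which secretes bilirubin and glutathione conjugates. FPKM values were 40.7, 26.4 and 51.9 for flox 1 to 3 and 28.5, 45.3 and 42.2 for HKO 1 to 3, so that the libraries labelled HKO lay inside the flox range. HKO minus flox came to -0.01 with a 95% confidence interval of -0.78 to 0.75 (limma, adjusted p = 0.987), an interval that leaves room for a difference of either sign. These are the longest of the 10 genes, with 9383 and 8532 bases, and the length trend differed between libraries, with slopes of -0.142 in flox 2, -0.0402 in flox 1 and 0.0384 to 0.0488 in the other libraries (log2 level per log2 length).

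Abcc3 and Abcc4, the Abcc genes of basolateral export among the 10, were both lower in the libraries labelled HKO, and Slc51b was not separated. Abcc5, followed below with other exporters, lay on the other side of 0 (0.23, limma, adjusted p = 0.530). Abcc3 (ENSMUSG00000020865, chr11:94343295-94392997, minus strand) encodes MRP3, which returns glucuronides and bile acids to blood. FPKM values were 35.4, 38.0 and 32.4 for flox 1 to 3 and 15.9, 18.8 and 17.4 for HKO 1 to 3. Both groups were tight, and the means of 35.2 ± 2.80 and 17.4 ± 1.45 FPKM (SD, n = 3) gave a ratio of 0.493. The log2 fold change was -1.0 ± 0.19 (SE), with a 95% confidence interval of -1.45 to -0.55 (limma, adjusted p = 0.148). Abcc3 was the 1 gene of the 10 whose spread was not wider in flox, with an SD of 0.114 in flox and 0.117 in HKO on the log2 scale. Without flox 3 its value was -1.06 (limma, adjusted p = 0.0147; adjusted p from 0.0147 to 0.526 over the alternatives).

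Abcc4 (ENSMUSG00000032849, chr14:118482692-118706219, minus strand) encodes MRP4, which exports bile acids together with glutathione. Flox 1 to 3 stood at 5.42, 5.34 and 2.52 FPKM, HKO 1 to 3 at 1.68, 1.76 and 1.58 FPKM. The groups did not overlap, and flox 3 was the flox library nearest to the libraries labelled HKO. On the log2 scale the difference was -1.12 with a 95% confidence interval of -1.85 to -0.39 (limma, adjusted p = 0.180). Without flox 3 it was -1.44 (limma, adjusted p = 0.0147; adjusted p from 0.0147 to 0.526 over the alternatives). The values rest on 215 to 641 reads per library.

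Slc51b (ENSMUSG00000053862, chr9:65412714-65422955, minus strand) encodes OSTβ, the smaller subunit of a bidirectional bile acid carrier and a known target of FXR. Levels in flox 1 to 3 were 10.2, 7.19 and 0.368 FPKM, those in HKO 1 to 3 6.26, 7.23 and 6.78 FPKM. Flox 3 alone was low, with 4 reads against 82 to 134 in the other 5 libraries, and the highest flox library was 27.7 times the lowest. The libraries labelled HKO lay inside the flox range and differed among themselves by a factor of 1.16. HKO minus flox came to 0.80 with a 95% confidence interval of -1.32 to 2.93 (limma, adjusted p = 0.592), and without flox 3 it was -0.32 (adjusted p = 0.224). OSTβ needs the α subunit to work as a carrier, and the gene of that partner, Slc51a, had 0 reads in 5 libraries and 1 read in HKO 2. Even 3 reads of Slc51a would have amounted to 0.0858 to 0.122 FPKM, far under the level of Slc51b in every library but flox 3, where Slc51b itself had 0.368 FPKM.

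Markers of bile duct cells summed to more in the libraries labelled HKO, mainly through Spp1. Abcc3 and Slc51b are also known from bile duct cells. The 12 cholangiocyte markers summed to 130 to 142 FPKM in flox and 185 to 318 FPKM in HKO libraries. At an unadjusted p under 0.05 (limma), 4 of the 10 tested were on the higher side for HKO and 0 on the lower. Of all tested genes, 10.1% were on the higher side at that level and 10.8% on the lower. Spp1, the largest part of each HKO sum, stood at 58.2, 47.4 and 35.0 FPKM across flox 1 to 3, then 124, 220 and 88.1 FPKM across HKO 1 to 3. Aqp1, the next largest there, overlapped, with 49.3 to 84.9 FPKM among flox and 46.8 to 65.7 FPKM among HKO libraries. Krt19 spanned 1.51 to 4.86 FPKM among flox and 3.01 to 5.92 FPKM among HKO libraries, and Cftr was listed at 0 in flox 2. Macrophage markers (10 of 10 tested, 0 higher and 6 lower at that level) summed to 865 to 1528 FPKM in flox and 485 to 719 FPKM in HKO, and leukocyte markers (6 of 9 tested, 0 higher and 3 lower) to 22.0 to 54.8 and 5.58 to 8.15 FPKM, with Ly6g at 0 reads in every library. S100a8 and S100a9 made up most of the leukocyte sum in flox (17.4 and 26.5 FPKM in flox 1), while Ptprc, which marks leukocytes in general, spanned 0.638 to 0.973 FPKM among flox and 1.05 to 1.37 FPKM among HKO libraries. Endothelial markers (8 of 9 tested, 2 higher and 0 lower) summed to 75.2 to 147 FPKM in flox and 62.8 to 85.5 FPKM in HKO, and stellate cell markers (9 of 9 tested, 1 higher and 1 lower) to 97.3 to 115 and 104 to 121 FPKM. The endothelial sum of 147 FPKM was that of flox 3, where Lyve1 stood at 70.4 FPKM, against 9.38 and 5.19 FPKM in flox 1 and 2. The part of cell composition in the transporter values was not tested. In bulk liver RNA, fewer cells of a type and less RNA per cell cannot be told apart.

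**Figure D2:**
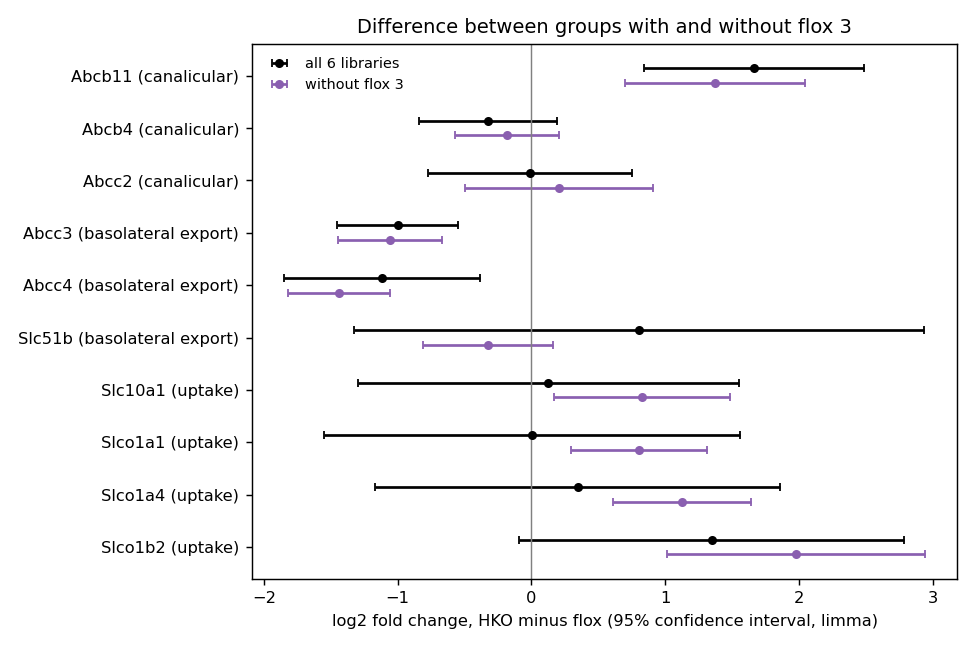
Log2 fold change of each transporter gene, HKO minus flox (x axis), with its 95% confidence interval from limma, for all 6 libraries (black) and without flox 3 (purple). The intervals of the uptake genes and Slc51b narrow without flox 3, and the interval of Slc10a1 then runs from 0.17 to 1.48.

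All 4 uptake genes had their widest spread within the flox group, and for 3 of them every library labelled HKO lay inside the flox range. Slc10a1 (ENSMUSG00000021135, chr12:80953183-80968705, minus strand) encodes NTCP, the main sodium-dependent carrier of conjugated bile acids. Flox 1 to 3 stood at 45.4, 43.9 and 193 FPKM, HKO 1 to 3 at 56.8, 100.1 and 88.3 FPKM. Flox 3 was above, and flox 1 and 2 were below, every library labelled HKO. The log2 fold change was 0.13 with a 95% confidence interval of -1.30 to 1.55 (limma, adjusted p = 0.910). The group means ran the other way, 94.1 ± 85.6 FPKM in flox and 81.8 ± 22.4 FPKM in HKO (SD, n = 3), because the log2 scale gives less weight to the high value of flox 3. The log2 value turned to -0.21 without flox 1, -0.24 without flox 2 and -0.04 without HKO 2. Without flox 3 it was 0.83 and did not pass (adjusted p = 0.0522).

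Slco1a1 (ENSMUSG00000041698, chr6:141907282-141946962, minus strand), which encodes OATP1A1, a carrier known to be higher in male than in female mouse liver, was the lowest of the 10 genes. Levels in flox 1 to 3 were 0.338, 0.412 and 4.09 FPKM, those in HKO 1 to 3 1.15, 0.844 and 1.09 FPKM. Flox 3 held 331 reads, far more than the 33 of flox 1 or the 35 of flox 2, and HKO libraries held 92 to 126. On the log2 scale the difference was 0.0038 (95% confidence interval -1.55 to 1.56, limma, adjusted p = 0.998), while the means of 1.61 ± 2.15 FPKM in flox and 1.03 ± 0.164 FPKM in HKO (SD, n = 3) ran the other way, and without flox 3 it was 0.80 (adjusted p = 0.0300; adjusted p from 0.0300 to 0.998 over the alternatives).

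Slco1a4 (ENSMUSG00000030237, chr6:141805440-141856199, minus strand) encodes OATP1A4, a carrier that also takes up cardiac glycosides. Flox 1 to 3 stood at 9.95, 9.37 and 50.7 FPKM, HKO 1 to 3 at 18.4, 27.2 and 20.2 FPKM, with every library labelled HKO between flox 3 and the other flox libraries. HKO minus flox came to 0.35 on the log2 scale (95% confidence interval -1.17 to 1.86, limma, adjusted p = 0.754), with means that ran the other way, 23.3 ± 23.7 FPKM in flox and 21.9 ± 4.66 FPKM in HKO (SD, n = 3). It was -0.0231 without flox 1 and -0.0645 without flox 2, and without flox 3 it was 1.12 (adjusted p = 0.0165; adjusted p from 0.0165 to 0.989 over the alternatives). Slco1b2 (ENSMUSG00000030236, chr6:141629518-141686646, plus strand) encodes OATP1B2, the rodent counterpart of the human hepatic OATP1B carriers of bilirubin and bile acids. Flox 1 to 3 stood at 34.3, 15.1 and 86.1 FPKM, HKO 1 to 3 at 69.0, 118 and 93.0 FPKM. HKO 1 was below flox 3, and the other libraries labelled HKO were above it. The log2 fold change was 1.35 with a 95% confidence interval of -0.09 to 2.78 (limma, adjusted p = 0.254). Without flox 3 it was 1.98 (adjusted p = 0.0177; adjusted p from 0.0177 to 0.537 over the alternatives), and without flox 2 it was 0.74 (adjusted p = 0.418).

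**Figure D3:**
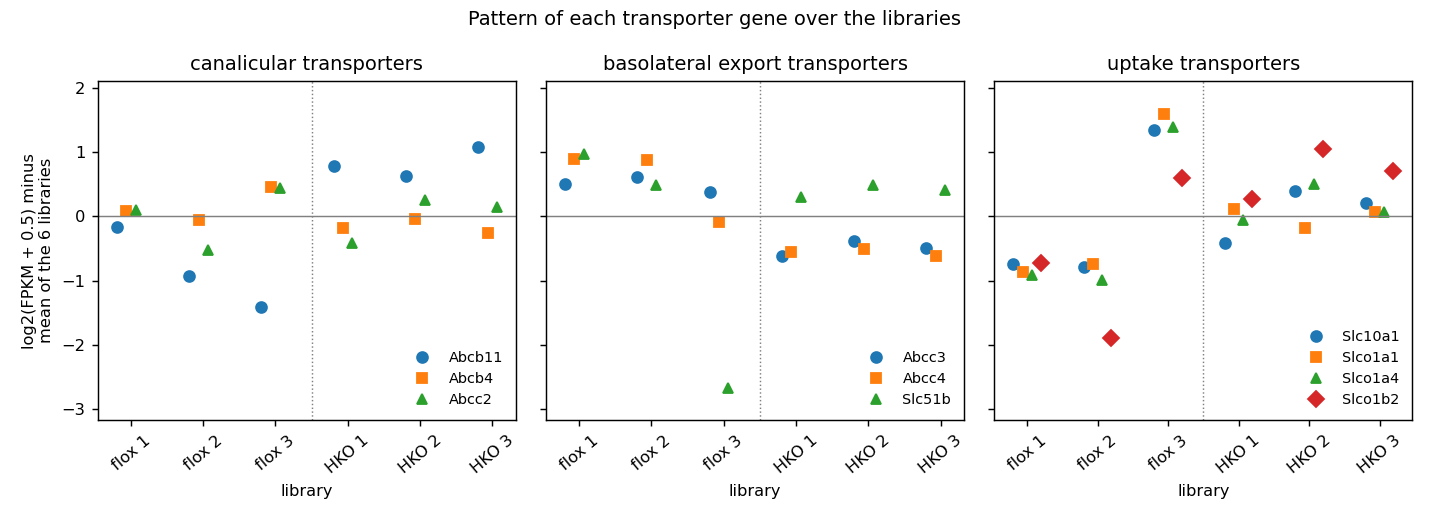
Log2(FPKM + 0.5) of each transporter gene minus its mean over the 6 libraries (y axis) in each library (x axis), by role, with a dotted line between groups. The uptake genes are low in flox 1 and 2 and high in flox 3, where Abcb11 and Slc51b have their lowest values, and Abcc3 and Abcc4 are low in every library labelled HKO.

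Much of the variation was among the flox libraries. In flox 3 the 4 uptake genes were above flox 1 and 2, Abcb11 and Slc51b were at their lowest of the 6 libraries, and Abcc3 and Abcc4 were at their lowest among flox libraries. Flox 3 was the highest library for 5 of the 10 genes and the lowest for 2, and flox 2 the highest for 1 and the lowest for 4. The libraries labelled HKO lay within the flox range for 5 of the 10 (Abcc2, Slc51b, Slc10a1, Slco1a1 and Slco1a4), against 38.1% of all tested genes. Since levels per gene length can be set side by side, the mean over 6 libraries ran from 87.9 FPKM for Slc10a1, 69.3 for Slco1b2 and 62.9 for Abcb11, through 39.1 for Abcc2, 32.1 for Abcb4, 26.3 for Abcc3 and 22.6 for Slco1a4, to 6.34 for Slc51b, 3.05 for Abcc4 and 1.32 for Slco1a1. This order pools groups that differ by gene. In the libraries labelled HKO the means were led by Abcb11 (94.5 FPKM), Slco1b2 (93.5 FPKM) and Slc10a1 (81.8 FPKM), and in flox Abcb11 (31.2 FPKM) stood below Slc10a1 (94.1 FPKM), Slco1b2 (45.2 FPKM), Abcc2 (39.7 FPKM), Abcb4 (35.9 FPKM) and Abcc3 (35.2 FPKM). The ranges over libraries of neighbours in the pooled order overlapped, as for Slc10a1 (43.9 to 193 FPKM) and Slco1b2 (15.1 to 118 FPKM), and the narrowest overlap was that of Slco1a4 (9.37 to 50.7 FPKM) with Slc51b (0.368 to 10.2 FPKM).

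The median log2 fold change was -0.01 for the canalicular genes, -1.0 for the exporters and 0.24 for the uptake genes, beside -0.0018 for all genes tested. Without flox 3 the medians were 0.21, -1.06 and 0.97, beside 0.02 for all genes. The uptake median was -0.12 without flox 1 and -0.15 without flox 2. The canalicular median was -0.28 without flox 2, and above 0 without flox 1 (0.03), flox 3 (0.21) or HKO 1 (0.19). Only the exporter median kept its sign on leaving out each library, though Slc51b within it went from 0.80 to -0.32 without flox 3. In the GENCODE M21 annotation of GRCm38, 3 of the 10 genes overlap a gene on the opposite strand, and the strand setting of the counting is not given in the sources used here. Those partners had at most 18 reads per library where the tables list them (Gm13613 in Abcb11, in HKO 3), and Rasl12, which overlaps Slc51b, had 4 to 12 reads per library, and 4 in flox 3, where Slc51b also had 4. Within Slco1a1 the small RNA gene Gm22036 had 0 to 31 reads, the most in HKO 1, where Slco1a1 had 122. Reads left uncounted because they fell on both genes were not measured. The Slco1a genes belong to a cluster of similar genes on chromosome 6, so reads could be split between members.

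Other genes of bile formation were followed in 6 lists of 82 genes, of which 73 were tested. None passed with all 6 libraries by limma after adjustment. At an unadjusted p under 0.05, 12 were on the higher side for HKO and 5 on the lower, and without flox 3, 21 passed as higher and 8 as lower, beside the shares of all genes given above. Values of the 3 genes with the smallest p in each list follow. No gene in them is called.

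Of other canalicular transporters, 10 of 12 were tested, with a median log2 fold change of 0.34. Atp8b1, a flippase that protects the canalicular membrane, stood at 2.88, 1.10 and 4.79 FPKM across flox 1 to 3, then 6.73, 7.30 and 8.69 FPKM across HKO 1 to 3, a value of 1.39 (limma, adjusted p = 0.195). Abcg5 and Abcg8, whose products pair to secrete cholesterol into bile, were at -1.24 (adjusted p = 0.209) and -1.45 (adjusted p = 0.208). Abcg8 stood at 21.5, 9.55 and 33.6 FPKM across flox 1 to 3, then 4.24, 8.39 and 8.19 FPKM across HKO 1 to 3, so the canalicular sterol pair lay on the other side of 0 from Abcb11. Without flox 3, 3 genes of this list passed as higher and 0 as lower.

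Among other basolateral exporters, 3 of 5 were tested, with a median of 0.31, and Abcc5, Abca1 and Slc16a1 had values of 0.23, 0.74 and 0.31 (limma, adjusted p = 0.530, 0.538 and 0.655). Other uptake carriers had 13 of 15 tested and a median of -0.0065. Slc22a7, which encodes the organic anion transporter OAT2, stood at 2.64, 3.75 and 2.47 FPKM across flox 1 to 3, then 9.54, 9.76 and 11.5 FPKM across HKO 1 to 3, a value of 1.66 with an SE of 0.22 (limma, adjusted p = 0.121). Slc10a5, an orphan relative of Slc10a1, was at 1.68 (adjusted p = 0.226), and Slco2a1, the prostaglandin transporter, at 0.69 (adjusted p = 0.222). Slc10a2, the apical bile acid carrier known from ileum and bile duct cells, stood at 2.85, 1.78 and 12.5 FPKM across flox 1 to 3, while HKO libraries spanned 6.32 to 8.46 FPKM, with flox 3 highest as for Slc10a1.

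Synthesis and conjugation genes had 15 of 17 tested and a median of 0.04. Cyp7a1, which opens the classical pathway of bile acid synthesis, stood at 9.59, 9.23 and 12.3 FPKM across flox 1 to 3, then 44.3, 76.0 and 31.8 FPKM across HKO 1 to 3, a value of 2.15 (limma, adjusted p = 0.125). Akr1d1, a steroid reductase of that pathway, was at 1.68 (adjusted p = 0.157), and Acot8, a peroxisomal thioesterase, at -0.86 (adjusted p = 0.184). Cyp8b1, the sterol hydroxylase that sets the share of cholic acid, was chosen after its values were seen and stood at 4.96, 9.24 and 309 FPKM across flox 1 to 3, while HKO libraries spanned 17.9 to 18.4 FPKM. Flox 3 was highest for Cyp8b1, as for Slc10a1, Slco1a1 and Slco1a4. For each of these the libraries labelled HKO lay between flox 3 and the other flox libraries. The hepatocyte markers Cps1 and Tat had the same order. Of all tested genes, flox 3 was the highest library for 26.3%, and the libraries labelled HKO lay within the flox range for 38.1%.

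Nuclear receptors and related regulators had 17 of 18 tested and a median of 0.03. The genes with the smallest p were Ahr, the aryl hydrocarbon receptor, at 1.56 (limma, adjusted p = 0.157), Nr5a2, which encodes the bile acid synthesis regulator LRH-1, at 0.90 (adjusted p = 0.157), and Cebpb, a factor of the acute-phase response, at -1.30 (adjusted p = 0.160). Nr1h4, named for the FXR-type element above and outside the 3 with the smallest p, stood at 35.8, 40.4 and 66.7 FPKM across flox 1 to 3, then 28.1, 32.0 and 27.9 FPKM across HKO 1 to 3. Its log2 fold change was -0.64 (limma, adjusted p = 0.248), while Nr0b2, the FXR target that encodes SHP, was at 0.08 (adjusted p = 0.910), with 10.2 to 21.3 FPKM in flox and 9.87 to 22.7 FPKM in HKO. The value of Abcb11 was above 0 and that of Nr1h4 below it. The confidence interval of Nr1h4, -1.30 to 0.02 (limma), held 0. FXR activity was not measured, and a part of FXR in the Abcb11 values was not tested.

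The 15 genes of apical trafficking and junctions were all tested, with a median of 0.14. Cgn, which encodes the tight junction protein cingulin, was at 1.13 (limma, adjusted p = 0.145), Tjp1, the scaffold ZO-1, at 1.5 (adjusted p = 0.211), and Rdx, the actin linker radixin of the canalicular membrane, at 1.39 (adjusted p = 0.221). Of 6 ileal and renal transport genes, 3 were tested. Slc5a1, the sodium-glucose cotransporter SGLT1, had 0.43 to 0.62 FPKM in flox and 3.18 to 4.40 FPKM in HKO (2.08, limma, adjusted p = 0.0926), and Slc10a2 was at 0.82 (adjusted p = 0.440), while Fgf15 had 0 reads in every library. Vil1, the microvillar protein villin, reached the minimum mean only through the libraries labelled HKO, so its values are a description, with 0.532, 0.175 and 0.0551 FPKM in flox libraries and 1.36, 1.77 and 1.59 FPKM in those labelled HKO.

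**Figure D4:**
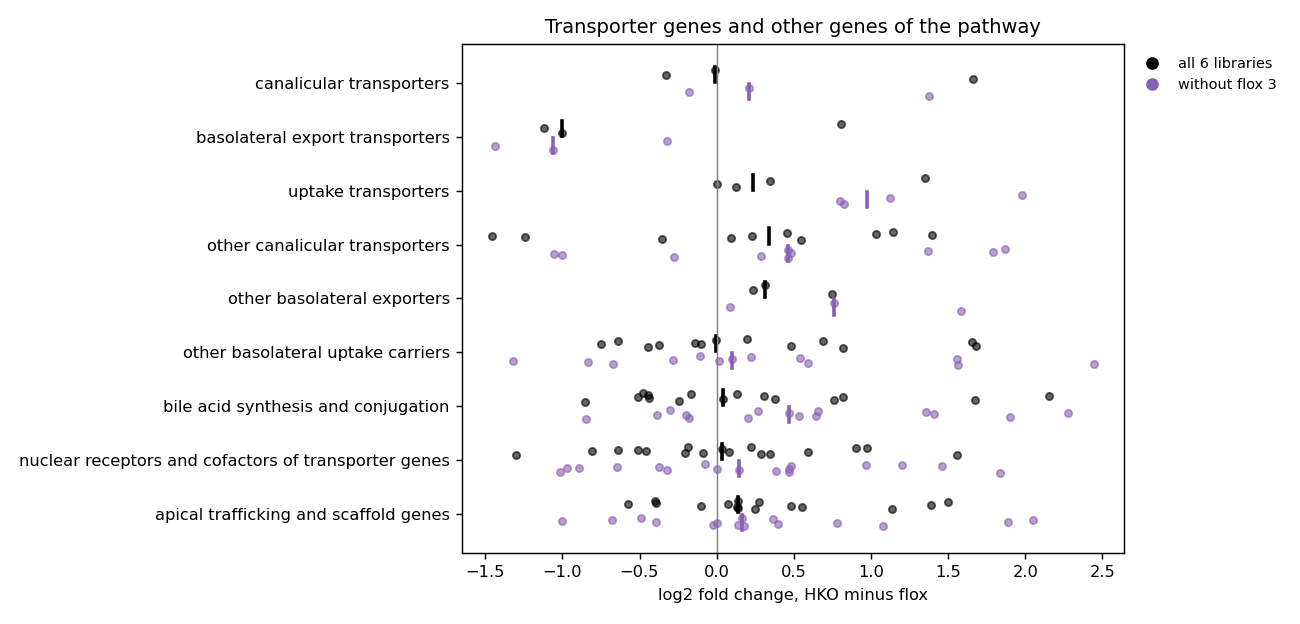
Log2 fold change, HKO minus flox (x axis), of the tested genes of each pathway list (y axis), for all 6 libraries (black) and without flox 3 (purple), with a point for each gene and a vertical bar at the list's median. The medians with all 6 libraries run from -1.0 for the exporters to 0.34 for other canalicular transporters.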

How the data were processed

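RNA sequencing libraries of 6 mouse livers, 3 per group, were analysed. RNA came from snap-frozen liver by TriPure extraction, and libraries by Illumina's standard method, per the labels' protocols. TopHat2, HTSeq 0.6.1 and the build GRCm38.p6 are named, with no settings, per the submitters' processing notes. The authors deposited FPKM values in 1 table per group. Each FPKM times the gene's length was a whole multiple of 1 read for 100% of values above 0 (tolerance 0.01 of a read), which gave the reads per gene used here. The library sizes inside the FPKM values equal median-of-ratios size factors over the 6 libraries, so the tables share a normalization.

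Log2(FPKM + 0.5) was tested with limma 3.58.1 in R 4.3.3 (linear model of group, variance trend, two-sided, Benjamini-Hochberg over the 13787 genes whose mean reached 0.5 FPKM, threshold 0.05, prior degrees of freedom 2.76). Fold changes understate the change of low genes. The members, lists, tests and alternatives were chosen with earlier results of these data known. Named were the 10 genes, Elavl1, the 3 genes of smallest p in each other list, and Alb, Krt19 and Ptprc as the first of their marker lists. Cyp8b1, Nr1h4, Nr0b2, Slc51a, Slc10a2, Fgf15, Cps1 and Tat were added after values were seen. So were the markers Spp1, Aqp1, Epcam, Tspan8, Sox9, Cftr, S100a8, S100a9, Ly6g and Lyve1. Alternatives were a filter at 2 FPKM or none, a pseudocount of 0.1 or 1, TMM scaling, quantile normalization, moderation without trend or robust, a replicate block, removal of each library's length trend (lowess, span 0.3) with and without the block, voom on recovered reads, and leaving out each library. Promoter sequences are RefSeq's on GRCm38.p6. Figures were drawn with matplotlib 3.10.9.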

Additional observations from a re-analysis of the deposited data

How the results depend on the processing

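The alternatives numbered 18. Over the 10 transporter genes they gave 179 fold changes, of which 155 kept their direction and side of the threshold, 6 kept their direction and passed, all without flox 3, and 18 changed sign, among them values of Slco1a1 and Slco1a4, which are 2 of the 6 that passed without flox 3. The number of genes past the threshold, 2 with all libraries, was 3 with moderation without trend, 1 with the replicate block and 1 with the block and the length correction. On leaving out a library the number was 0 to 5575 (0 without flox 1 or HKO 2, 1 without HKO 3, 5575 without flox 3). The number of transporter genes past the threshold, 0 with all libraries, was 0 to 6 on leaving out a library. It was 0 under every other alternative run, with the replicate block included. Slco1a1 turned to -0.0707 with a pseudocount of 1, -0.186 after quantile normalization and -0.123 after the length correction (with and without the block), and on leaving out a library ran from -0.426 to 0.802, below 0 without flox 1, flox 2, HKO 1 or HKO 3. Abcc2 turned to 0.30 after quantile normalization and on leaving out a library ran from -0.275 to 0.207, above 0 without flox 1, flox 3 or HKO 1. Slc10a1 ran from -0.236 to 0.826, below 0 without flox 1, flox 2 or HKO 2, Slco1a4 from -0.0645 to 1.12, below 0 without flox 1 or flox 2, and Slc51b from -0.324 to 1.49, below 0 without flox 3. The cause was not tested. Same-numbered libraries did not deviate together (r of deviations from group means -0.04, -0.09 and 0.07 for numbers 1, 2 and 3), so the block pairs by number only. A count-based quasi-likelihood test of the recovered reads was not run, and Slco1a1 has no value with the filter at 2 FPKM. Few reads limit the values of Slc51a and, in flox 3, of Slc51b. Flox 3 itself had 18119468 assigned reads, within the range of the other libraries.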
